A study of Mus musculus with 24 samples.

Results

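The 9 genes described are enzymes of the urea cycle and liver enzymes that bring amino acid nitrogen to it: Nags, Cps1, Otc, Ass1, Asl, Gls2, Glud1, Tat and Sds. They were taken by gene symbol from a count table of 35275 genes, in which all 9 were found, and all 9 passed the filter on low counts in both fits below. RNA was sequenced from whole liver of male C57BL/6 mice, 8 to 10 weeks old and fasted for 24 h, in 24 libraries with 4 from each of 6 genotypes. The question was how hepatic mTorc1 activity and fatty acid oxidation act together on the fasted liver. Values are CPM, counts scaled to library size with TMM factors, unless FPKM, which also divides by gene length, is named. Total counts per library ranged from 14470968 to 20371204.

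Control livers are labeled wild type, and the study's methods describe controls carrying floxed alleles. Tsc1 L-/- mice lack Tsc1, an inhibitor of mTorc1, Cpt2 L-/- mice lack Cpt2, which is required for mitochondrial oxidation of long-chain fatty acids, and DKO mice, labeled Tsc1Cpt2 L-/-, lack both. The floxed alleles were deleted by Cre under the albumin promoter, which is active in hepatocytes. Whether other liver cells kept the genes was not tested. Ppara KO mice lack Pparα, a nuclear receptor that drives fasting gene expression, and Cpt2 L-/- Ppara KO mice lack it together with hepatic Cpt2. The labels do not say whether the Ppara deletion covered the whole body, and the study's text does not describe these 8 libraries.

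The urea cycle turns ammonia, which is toxic, into urea for excretion, and it is complete only in the hepatocytes around the portal vein. Nags makes N-acetylglutamate, the obligate activator of Cps1, which condenses ammonia and bicarbonate to carbamoyl phosphate in mitochondria. Otc joins carbamoyl phosphate to ornithine, and Ass1 and Asl add the nitrogen of aspartate and release fumarate in the cytosol. Gls2 and Glud1 release ammonia from glutamine and glutamate inside mitochondria. Tat and Sds degrade tyrosine and serine, and both are classical genes of fasting and of the response to glucagon and glucocorticoids.

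The labels were checked first. Tsc1 was at 36.8 to 39.9 CPM in control livers, 18 to 28.6 CPM in Tsc1 L-/- livers and 15.5 to 18.1 CPM in DKO livers, and Ppara was at 213 to 276 CPM in control against 13 to 45.2 CPM in Ppara KO and 26.2 to 91.9 CPM in Cpt2 L-/- Ppara KO livers. Cpt2 counts over the whole gene overlapped between control (87.8 to 104 CPM) and Cpt2 L-/- livers (80.3 to 105 CPM), so they do not check the Cpt2 label. The library labelled Cpt2 L-/- Ppara KO replicate 1 stood apart from the other 3 of its group in all of these genes, with Ppara at 91.9 CPM (others 26.2 to 46.2), Cpt2 at 125.5 CPM (others 31.7 to 39.1) and Tsc1 at 24.3 CPM (others 42.4 to 50.6), the last within the Tsc1 L-/- range although Tsc1 is intact by its label. Ppara KO replicate 1 read 96.1 CPM of Cpt2, the others of its group 38 to 50.9. Of 5 hepatocyte markers 4 were found, and their summed level was 58218 to 69494 CPM for control libraries, 35759 to 57385 CPM for Tsc1 L-/-, 28405 to 52905 CPM for Cpt2 L-/-, 25018 to 29580.4 CPM for DKO, 48365 to 71812 CPM for Ppara KO and 32921 to 51075 CPM for Cpt2 L-/- Ppara KO libraries. In this sum all groups other than Ppara KO lay wholly below the control range. By marker, edgeR called none of the 4 in Tsc1 L-/- livers, where 2 had a positive log2 fold change. In Cpt2 L-/- and in DKO livers 2 fell and none rose (14.9% and 17.1% of all genes fell), and in Ppara KO livers 1 rose (15.9%). The 6 periportal markers outside the 9 genes summed to 6087 to 7987 CPM in control and 3412 to 4517 CPM in DKO livers, with 5158 to 6083 CPM in Cpt2 L-/- livers also below control, while the other 3 groups overlapped with control. In Tsc1 L-/- livers 5 of these 6 had a positive log2 fold change, and 1 was called higher (4.16% of all genes). In Cpt2 L-/- livers 1 rose and 3 fell (16.2% and 14.9%), in DKO livers 1 rose and 4 fell (19.3% and 17.1%), and in Ppara KO livers 1 fell (13.2%). The 8 pericentral markers summed to 14264 to 15701 CPM in control livers and lay below that range in every other group, at 5937 to 10219 CPM in Tsc1 L-/-, 5832 to 8753 CPM in Cpt2 L-/-, 6082 to 7357 CPM in DKO, 4471 to 7707 CPM in Ppara KO and 5658 to 8638 CPM in Cpt2 L-/- Ppara KO livers. Of these 8, 2 fell in Tsc1 L-/- (2.48% of all genes), 5 in Cpt2 L-/- (14.9%) and 5 in DKO livers (17.1%), and none rose. In Ppara KO livers 1 rose and 3 fell (15.9% and 13.2%). Markers of other cells were counted as well. The 5 Kupffer cell and macrophage markers found, of 6 listed, summed to 166 to 287 CPM in control and 98.2 to 139 CPM in DKO livers, where 4 of the 5 fell, and the 5 stellate cell markers to 179 to 259 CPM and 117 to 145 CPM, where all 5 fell, while 17.1% of all genes fell. Of 5 endothelial markers 3 fell in DKO livers (256 to 285 CPM in control and 158 to 266 CPM in DKO). Of these 15 markers, edgeR called none in Tsc1 L-/- livers, where 5 had an unadjusted p under 0.05 and 4.16% of all genes rose and 2.48% fell. In Cpt2 L-/- livers 3 stellate markers fell (14.9% of all genes) and 1 endothelial marker rose (16.2%). From Cpt2 L-/- to DKO livers 3 Kupffer cell, 2 endothelial and 1 stellate marker fell (7.4%), and from Tsc1 L-/- to DKO livers 3, 1 and 1 fell (15.2%). In Ppara KO livers 1 Kupffer cell and 1 stellate marker fell (13.2%) and 1 endothelial marker rose (15.9%), and from Cpt2 L-/- to Cpt2 L-/- Ppara KO livers 2 Kupffer cell markers rose (10.3%). From Ppara KO to Cpt2 L-/- Ppara KO livers 2 Kupffer cell, 1 endothelial and 1 stellate marker rose (12.9%) and 2 endothelial markers fell (12.6%). Of 5 cholangiocyte markers 1 fell in Cpt2 L-/- (14.9%) and 1 in DKO livers (17.1%), and 1 rose in Ppara KO livers (15.9%). From Cpt2 L-/- to DKO livers 1 rose (10.9%), and 1 fell from Tsc1 L-/- to DKO (15.2%) and from Ppara KO to Cpt2 L-/- Ppara KO livers (12.6%). Of 4 red blood cell markers 3 rose in Cpt2 L-/- Ppara KO against Cpt2 L-/- livers (372.4 to 942.4 CPM and 139 to 383 CPM). Sums of 5 T and B cell markers and 4 pancreatic acinar markers were at most 22.7 CPM. In whole tissue, fewer cells of a type cannot be told apart from less RNA per cell, and the part of these marker changes in the results below was not tested.

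Levels are comparable between genes only per length. On the FPKM scale Ass1 was the most abundant of the 9 in control livers, at 1741 ± 735 FPKM (SD, n = 4), followed by Tat at 1246 ± 797 FPKM, Cps1 at 858 ± 344 FPKM, Asl at 446 ± 183 FPKM and Glud1 at 299 ± 50.1 FPKM. Sds was at 101 ± 76.7 FPKM, Gls2 at 88.1 ± 36.6 FPKM and Otc at 86 ± 11.7 FPKM. Nags, at 21.1 ± 1.81 FPKM, was the lowest. Together the 9 genes took 1.34% ± 0.538 (SD, n = 4) of all counts in control, 1.71% ± 0.442 in Tsc1 L-/-, 1.15% ± 0.186 in Cpt2 L-/-, 0.822% ± 0.243 in DKO, 2.44% ± 0.496 in Ppara KO and 2% ± 0.822 in Cpt2 L-/- Ppara KO livers. The DKO group had the lowest mean CPM for 8 of the 9 genes, the exception being Otc, which was lowest in Cpt2 L-/-, and it was lowest for 16.9% of 12260 genes. Ppara KO had the highest mean for 6 genes (24.1% of all), Tsc1 L-/- for Otc and Nags (14.5%) and control for Glud1 (12.6%). These counts depend on the scale. Glud1 was nearly level between DKO (514 CPM) and Cpt2 L-/- livers (518 CPM), and by FPKM it was lowest in Cpt2 L-/- (159 against 168 FPKM). Gls2, highest in Ppara KO by CPM, was highest in Tsc1 L-/- by FPKM (175 against 171 FPKM).

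**Figure D1:**
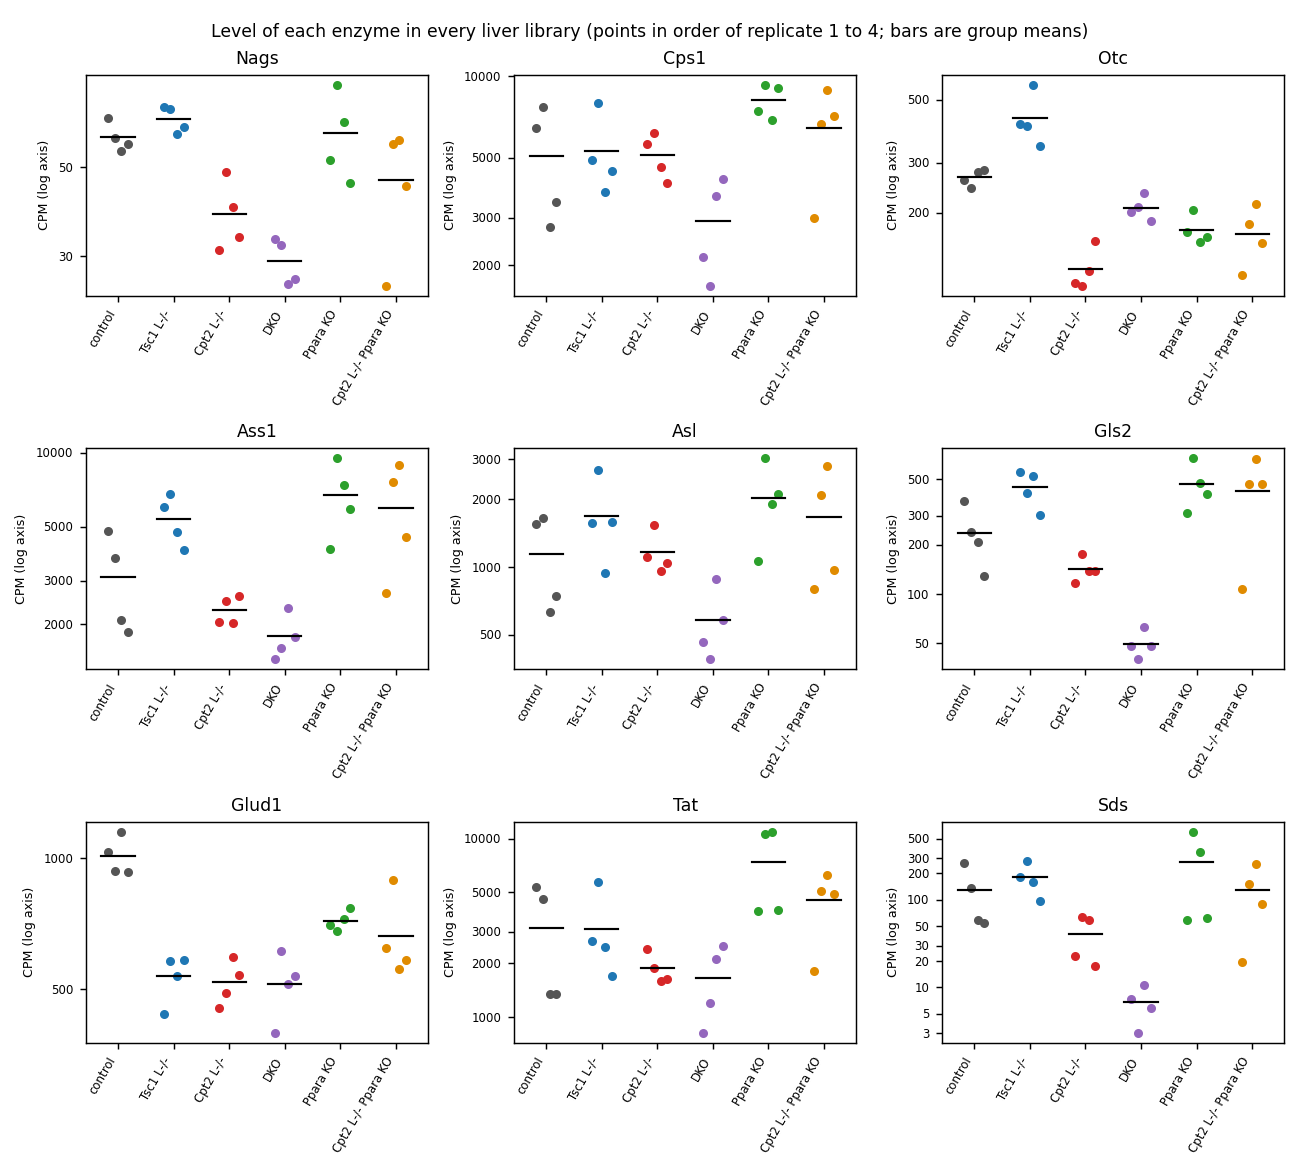
TMM-scaled CPM of each of the 9 enzymes (log axis) in all 24 libraries, by genotype. Points are libraries in order of replicate 1 to 4 and bars are group means, and the DKO mean is the lowest in every panel except Otc.

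The spread of the genes over genotypes was uneven. The ratio of the highest to the lowest group mean was 39.7 for Sds and 9.37 for Gls2. It was 4.46 for Tat, 3.76 for Ass1, 3.50 for Asl, 3.40 for Otc and 2.81 for Cps1, and it was smallest for Nags (2.25) and Glud1 (1.97). The 5 enzymes from Nags to Asl thus lay between 2.25 and 3.76.

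Libraries of the same genotype also differed. Control replicates 1 and 2 were both above replicates 3 and 4 for 7 of the 9 genes, a split seen in 21.2% of 12260 genes. The numbers in the column names are also close within each of these pairs. Their meaning is not given, and their part in the split was not tested. In Cpt2 L-/- Ppara KO livers, replicate 1, which stood apart in the label check, was the lowest for 8 of the 9 genes (38.1% of genes) and replicate 3 the highest for 8 (20.9% of genes). In Ppara KO livers, replicates 2 and 3 were above the others for 5 of the 9 (29.0% of genes). Among control livers the highest library exceeded the lowest 4.9-fold for Sds, 3.97-fold for Tat, 2.88-fold for Gls2, 2.78-fold for Cps1, 2.61-fold for Asl and 2.6-fold for Ass1. The control libraries lay closer for Glud1 (1.24-fold), Nags (1.21-fold) and Otc (1.16-fold).

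Differences were tested by edgeR's quasi-likelihood F test, adjusted by the Benjamini-Hochberg method over every gene tested, and an adjusted p under 0.05 was taken as a call. One fit held the 16 libraries in which Tsc1 and Cpt2 varied (13641 genes) and another the 16 in which Cpt2 and Ppara varied (13615 genes). The comparisons share libraries and are set side by side, each with its own values.

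Tsc1 deletion alone was compared with control first. Otc and Gls2 rose and Glud1 fell, where 4.16% of all genes tested rose and 2.48% fell. Otc was above and Glud1 below control without overlap of libraries, as were 6.97% and 5.2% of all genes. Cpt2 deletion alone lowered 5 of the 9 genes (Otc, Nags, Gls2, Glud1 and Sds) and raised none, where 16.2% of all genes rose and 14.9% fell. Of these, Otc, Nags and Glud1 fell without overlap, as did 13.8% of all genes. DKO livers had 6 of the 9 genes below control (Ass1, Asl, Nags, Gls2, Glud1 and Sds) and none above, where 19.3% of all genes rose and 17.1% fell. Otc, Nags, Gls2, Glud1 and Sds lay below control without overlap, as did 16.3% of all genes. The median log2 fold change of the 9 genes was 0.48, −0.76 and −0.98 in these comparisons, where that of all genes tested was 0.01, −0.02 and 0.02.

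DKO livers were then compared with each single deletion. Against Cpt2 L-/- livers, where the groups differ by Tsc1, Otc rose and Gls2 and Sds fell, while 10.9% of all genes rose and 7.4% fell. Otc was higher and Gls2, Sds and Asl were lower without overlap, as were 12.9% and 10.1% of all genes. Against Tsc1 L-/- livers, where the groups differ by Cpt2, 6 genes fell (Otc, Ass1, Asl, Nags, Gls2 and Sds) and none rose, while 16.9% of all genes rose and 15.2% fell. All 6 fell without overlap, as did 13.4% of all genes. The interaction term, the difference between the effect of one deletion in the presence and in the absence of the other, was negative for Gls2 and positive for Glud1. Negative calls made up 1.28% and positive calls 1.09% of all genes.

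Loss of Ppara gave another pattern. Ass1 rose and Otc and Glud1 fell in Ppara KO against control livers, where 15.9% of all genes rose and 13.2% fell. Otc and Glud1 were below control without overlap, as were 14.7% of all genes, and none of the 9 was above it without overlap, as were 15% of all genes. The median log2 fold change of the 9 genes was 0.82, and 0.01 over all genes. When Cpt2 was deleted in both groups, Ass1 and Gls2 rose with Ppara loss and none of the 9 fell, while 10.3% of all genes rose and 8.01% fell. Ass1 did so without overlap, as did 11.4% of all genes. For Cpt2 L-/- Ppara KO against Ppara KO livers edgeR called none of the 9, none had an unadjusted p under 0.05, none was without overlap (18.3% of all genes were) and DESeq2 called none, where edgeR called 12.9% of all genes higher and 12.6% lower. The interaction of Cpt2 and Ppara loss was called for Otc and Glud1, both positive, where 12% of all genes had a positive and 12% a negative call. Without the library labelled Cpt2 L-/- Ppara KO replicate 1, edgeR called 4 of the 9 higher in Cpt2 L-/- Ppara KO than in Cpt2 L-/- livers, Ass1 (1.62), Gls2 (1.91), Otc (0.54) and Tat (1.53), and still none against Ppara KO. The same 2 interactions were called without it, that of Otc being 1.16 and that of Glud1 0.89.

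**Figure D2:**
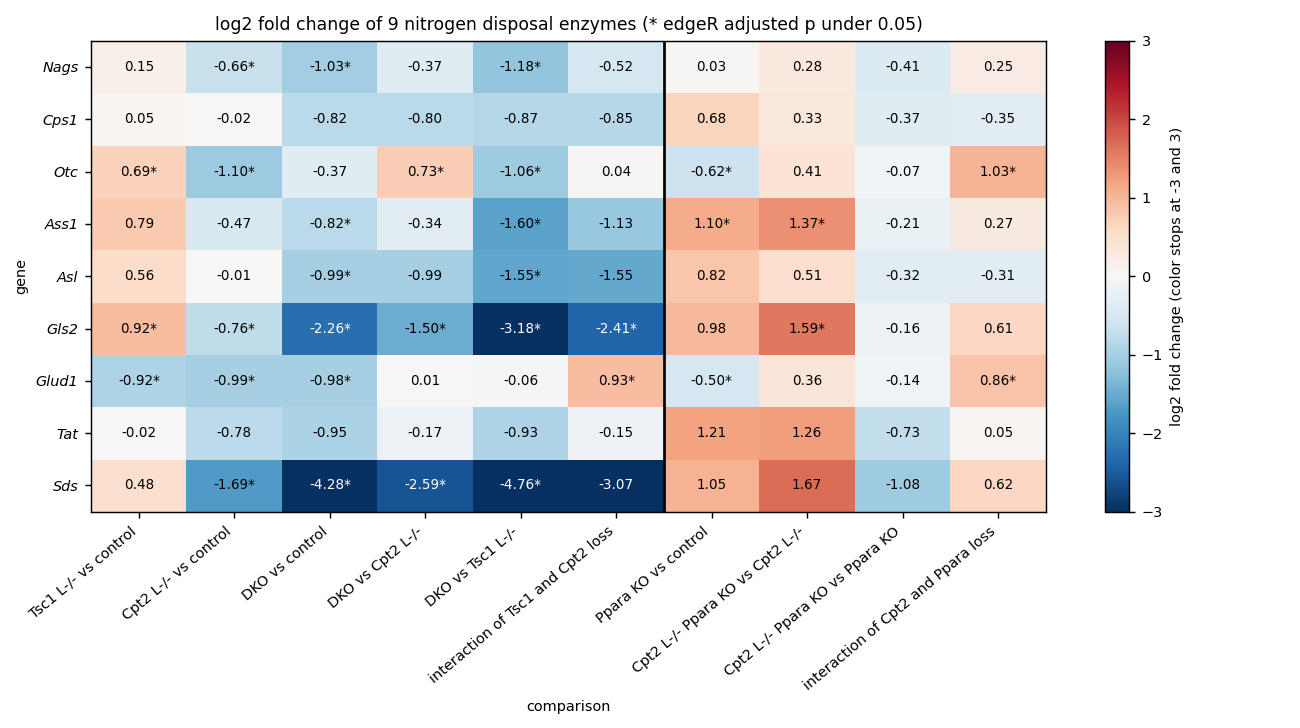
Log2 fold change of the 9 enzymes (rows) in the 10 comparisons (columns), with the fit of Tsc1 and Cpt2 to the left of the black line and that of Cpt2 and Ppara to the right. Stars mark an edgeR adjusted p under 0.05, and the 6 starred values of DKO against Tsc1 L-/- livers are all negative.

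Nags, at the head of the pathway, lies on chromosome 11 from 102145513 to 102149477 on the plus strand (ENSMUSG00000048217, GRCm38). It read 66.5, 59.4, 54.8 and 57.2 CPM in control replicates 1 to 4, 70.6, 69.8, 60.5 and 62.9 with Tsc1 deleted, 31.1, 48.6, 39.9 and 33.6 with Cpt2 deleted and 33.1, 32, 25.6 and 26.3 with both deleted. All 8 libraries without Cpt2 in this fit lay below all 8 with it. Nags fell in Cpt2 L-/- livers to 0.631 of control, a log2 fold change of −0.66 ± 0.13 (SE, edgeR adjusted p = 0.00104), and in DKO livers to 0.489 of control, −1.03 ± 0.13 (SE, edgeR adjusted p = 1.45e-05). In Tsc1 L-/- livers its difference from control was 0.15 ± 0.13 (SE, edgeR adjusted p = 0.582), which did not pass the threshold. The step from Cpt2 L-/- to DKO livers was −0.37 ± 0.13 (SE, edgeR adjusted p = 0.062), which was called by DESeq2 (adjusted p = 0.0412) and by edgeR without Cpt2 L-/- replicate 1 (−0.45, adjusted p = 0.0339), and that from Tsc1 L-/- to DKO livers −1.18 ± 0.14 (SE, edgeR adjusted p = 5.79e-06). Nags read 52.2, 80.5, 65 and 45.8 CPM in Ppara KO and 25.3, 57.3, 58.4 and 45 in Cpt2 L-/- Ppara KO livers, ranges that overlapped with each other and with control.

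Cps1, the entry enzyme for ammonia, lies on chromosome 1 from 67123026 to 67231259 on the plus strand (ENSMUSG00000025991). With every library kept, none of its comparisons was called by edgeR. It read 6426, 7685, 2759.5 and 3416 CPM in control livers, 4904, 7953, 3729 and 4473 with Tsc1 deleted, 5615, 6153, 4629 and 4031 with Cpt2 deleted and 2147, 1679.7, 3608 and 4169 with both deleted. The DKO libraries had the lowest mean but overlapped with control, with a log2 fold change of −0.82 ± 0.35 (SE, edgeR adjusted p = 0.0738) and a 95% interval of −1.55 to −0.09. DESeq2 called this difference, with an adjusted p of 0.0288, and edgeR called it without control replicate 3 (−1.02, adjusted p = 0.0326) and without DKO replicate 4 (−1.05, adjusted p = 0.0404). The difference of DKO from Tsc1 L-/- livers was −0.87 ± 0.35 (SE, edgeR adjusted p = 0.0656), called by DESeq2 (adjusted p = 0.0227) and by edgeR without the same libraries (−0.86, adjusted p = 0.0492 and −1.10, adjusted p = 0.0367). Ppara KO livers read 7408, 9305, 6871 and 9043 CPM and Cpt2 L-/- Ppara KO livers 2976, 6679, 8849.9 and 7106, and the difference of Ppara KO from control was 0.68 ± 0.34 (SE, edgeR adjusted p = 0.147).

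Otc is X-linked, from 10252305 to 10321024 on the plus strand (ENSMUSG00000031173), and it was the member in which the effects of Tsc1 and Cpt2 loss ran in opposite directions without overlap of libraries. Control livers read 260.4, 245, 278 and 284 CPM. Tsc1 deletion raised it to 411, 405, 566 and 344 CPM, 1.62 times control, and all 4 were above every control library. The log2 fold change was 0.69 ± 0.15 (SE, edgeR adjusted p = 0.00796). Cpt2 deletion lowered it to 113, 111, 125 and 159 CPM, 0.467 of control, with a log2 fold change of −1.10 ± 0.15 (SE, edgeR adjusted p = 2.85e-05). DKO livers were between, at 201, 209, 234 and 187 CPM, above every Cpt2 L-/- library and below every control library. Otc rose by 0.73 ± 0.15 (SE, edgeR adjusted p = 0.00285) on the log2 scale from Cpt2 L-/- to DKO livers and changed by −1.06 ± 0.15 (SE, edgeR adjusted p = 3.76e-05) from Tsc1 L-/- to DKO livers, and the difference of DKO from control was −0.37 ± 0.15 (SE, edgeR adjusted p = 0.0572), which was called by DESeq2 (adjusted p = 0.0308) and by edgeR with RLE factors (0.0452), in the fit of the 2 groups alone (0.0116) and in 3 of 16 fits without 1 library. The interaction term of Otc was 0.04 ± 0.21 (SE), with a 95% interval of −0.40 to 0.47, and Tsc1 loss went with a log2 difference of 0.69 ± 0.15 (SE) where Cpt2 was intact and 0.73 ± 0.15 (SE) where it was deleted.

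In the Ppara fit, Otc fell in Ppara KO livers to 171, 204, 158 and 164 CPM, below every control library, with a log2 fold change of −0.62 ± 0.18 (SE, edgeR adjusted p = 0.0174). This call was lost without Ppara KO replicate 3 (−0.57, adjusted p = 0.058), where the largest adjusted p over the other settings was 0.0323. Livers without both genes were at 121, 183, 214 and 156 CPM, overlapping with Ppara KO and with Cpt2 L-/- livers. Their difference from Cpt2 L-/- livers, 0.41 ± 0.18 (SE, edgeR adjusted p = 0.121), was called without Cpt2 L-/- Ppara KO replicate 1 (0.54, adjusted p = 0.0332). Its interaction of Cpt2 and Ppara loss was 1.03 ± 0.26 (SE, edgeR adjusted p = 0.0096). Libraries with and without Cpt2 did not overlap in Otc where Ppara was intact and overlapped where it was deleted.

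The next enzymes are cytosolic. Ass1, on chromosome 2 from 31470207 to 31520672 on the plus strand (ENSMUSG00000076441), makes argininosuccinate and read 4816, 3707, 2070.2 and 1852 CPM in control livers, 5996, 6798, 4744 and 4014 with Tsc1 deleted, 2045, 2479, 2028 and 2613 with Cpt2 deleted and 1439, 1596, 2337 and 1766 with both deleted. Every Tsc1 L-/- library was above every Cpt2 L-/- and every DKO library. Ass1 fell with a log2 fold change of −1.60 ± 0.27 (SE, edgeR adjusted p = 0.00022) from Tsc1 L-/- to DKO livers, to 0.329 of the Tsc1 L-/- level. In DKO against control livers it fell with a log2 fold change of −0.82 ± 0.27 (SE, edgeR adjusted p = 0.0229), a call lost without control replicate 1 (−0.51, adjusted p = 0.129) or 2 (−0.71, adjusted p = 0.0659) and without DKO replicate 1 (−0.72, adjusted p = 0.0665) or 2 (−0.76, adjusted p = 0.0639). It was also lost in 4 of 8 settings that kept every library, the fits of all 24 libraries and of the 2 groups alone and both limma fits (adjusted p of 0.0552 to 0.0769). The difference of Tsc1 L-/- from control, 0.79 ± 0.27 (SE, edgeR adjusted p = 0.0866), was not called by edgeR, but was called by DESeq2 (adjusted p = 0.0338), by limma on FPKM and by edgeR without control replicate 1 (1.09, adjusted p = 0.0201). The interaction of Tsc1 and Cpt2 loss, −1.13 ± 0.37 (SE, edgeR adjusted p = 0.115), was called by DESeq2 (adjusted p = 0.0415) and by edgeR without control replicate 1 (−1.45, adjusted p = 0.0381).

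Ass1 rose with Ppara loss. It was at 4047, 9511, 7379 and 5893 CPM in Ppara KO livers, a log2 fold change of 1.10 ± 0.38 (SE, edgeR adjusted p = 0.036) against control, and at 2679, 7612, 8907 and 4516 CPM in Cpt2 L-/- Ppara KO livers. The lowest of the latter was just above the highest Cpt2 L-/- library, and the log2 fold change between these groups was 1.37 ± 0.38 (SE, edgeR adjusted p = 0.0201). Both calls held in all 8 settings that kept every library, with adjusted p up to 0.0487 and 0.0317. Over all 16 fits without 1 library the value for Ppara KO against control was 0.87 to 1.40. Its call was lost without control replicate 2, 3 or 4 (adjusted p = 0.0502, 0.105 and 0.111). The same call was lost without Ppara KO replicate 2 or 3 (adjusted p = 0.116 and 0.0765). That of Cpt2 L-/- Ppara KO against Cpt2 L-/- was lost without Cpt2 L-/- replicate 1 or 3 (0.0532 and 0.066) and without Cpt2 L-/- Ppara KO replicate 2 or 3 (0.0602 and 0.0566), with values of 1.11 to 1.32.

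Asl, on chromosome 5 from 130011258 to 130025132 on the minus strand (ENSMUSG00000025533), releases arginine and fumarate. It read 1557, 1645, 631 and 742 CPM in control livers, 1565, 2684, 945 and 1577 with Tsc1 deleted, 1113, 1542, 963 and 1038 with Cpt2 deleted and 464, 390.5, 883 and 583 with both deleted. Every DKO library was below every Tsc1 L-/- and every Cpt2 L-/- library. Asl fell from Tsc1 L-/- to DKO livers with a log2 fold change of −1.55 ± 0.37 (SE, edgeR adjusted p = 0.0042), and the difference from Cpt2 L-/- to DKO livers was −0.99 ± 0.36 (SE, edgeR adjusted p = 0.0681), which edgeR did not call and which DESeq2 (0.0174), the fit of the 2 groups alone (0.0157), limma on log2(FPKM + 1) (0.0491) and 3 of 16 fits without 1 library called (adjusted p in parentheses). It fell in DKO against control livers with a log2 fold change of −0.99 ± 0.36 (SE, edgeR adjusted p = 0.0422), but this call was lost in 10 of 16 fits without 1 library, with values of −0.99 to −0.76 and adjusted p up to 0.137, and in 6 of 8 other settings. Ppara KO livers were at 1063 to 3041 CPM and Cpt2 L-/- Ppara KO livers at 800.0 to 2792 CPM, and neither difference passed the threshold. The interaction of Tsc1 and Cpt2 loss, −1.55 ± 0.51 (SE, edgeR adjusted p = 0.118), was called by DESeq2 alone (adjusted p = 0.0248).

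Among the enzymes that release ammonia, Gls2, the liver glutaminase, showed an interaction of the 2 deletions. It lies on chromosome 10 from 128194457 to 128210004 on the plus strand (ENSMUSG00000044005). Control livers read 371, 239, 208 and 129 CPM and Tsc1 L-/- livers 552, 413, 525 and 303, a log2 fold change of 0.92 ± 0.26 (SE, edgeR adjusted p = 0.0465). Cpt2 L-/- livers read 117, 176, 138 and 138 CPM, a log2 fold change of −0.76 ± 0.26 (SE, edgeR adjusted p = 0.0356), and both ranges overlapped with control. The rise was lost in 13 of 16 fits without 1 library (values of 0.71 to 0.95, adjusted p up to 0.121) and the fall in 6 of 16 (adjusted p up to 0.186, and a value of −0.42, adjusted p = 0.186 without control replicate 1). With every library kept, the rise was lost in 3 and the fall in 5 of 8 settings.

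In DKO livers Gls2 was at 48.6, 40.1, 62.7 and 48.1 CPM, below every other library of this fit. It fell to 0.209 of control (−2.26 ± 0.27, SE, edgeR adjusted p = 1.24e-05), 0.355 of Cpt2 L-/- (−1.50 ± 0.27, SE, edgeR adjusted p = 0.00164) and 0.111 of Tsc1 L-/- livers (−3.18 ± 0.28, SE, edgeR adjusted p = 1.43e-06). Tsc1 loss thus went with a log2 difference of 0.92 where Cpt2 was intact and of −1.50 where it was deleted. The interaction was −2.41 ± 0.37 (SE, edgeR adjusted p = 0.00323), with a 95% interval of −3.20 to −1.62, and held in each of the 16 fits without 1 library (adjusted p up to 0.0104) and in 7 other settings (up to 0.0393). Ppara KO livers read 310.5, 673, 477 and 408 CPM and Cpt2 L-/- Ppara KO livers 107, 469.6, 666 and 466, replicate 1 of the latter being below every Cpt2 L-/- library. The difference of Ppara KO from control was 0.98 ± 0.41 (SE, edgeR adjusted p = 0.0827), called by DESeq2 (adjusted p = 0.0459), in the fit of all 24 libraries (0.0472) and in 2 of 16 fits without 1 library. Gls2 rose by 1.59 ± 0.42 (SE, edgeR adjusted p = 0.0157) on the log2 scale against Cpt2 L-/- livers, a call lost with both limma fits (adjusted p = 0.0518 and 0.0527) and without Cpt2 L-/- replicate 3 (adjusted p = 0.0501). Spryd4 overlaps Gls2 on the opposite strand, and it had 12047 counts over the 24 libraries against 115664 of Gls2. How the counting used strand is not given in the sources used here.

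Glud1, glutamate dehydrogenase, lies on chromosome 14 from 34310727 to 34345144 on the plus strand (ENSMUSG00000021794). It read 1030.5, 935, 1149.6 and 929 CPM in control livers, 439, 581, 536 and 582 with Tsc1 deleted, 453, 489, 591 and 539 with Cpt2 deleted and 397, 611, 513 and 536 with both deleted. Every deleted library was below every control library, and the 3 deleted groups overlapped. Glud1 fell with a log2 fold change of −0.92 ± 0.15 (SE, edgeR adjusted p = 0.000919) in Tsc1 L-/-, −0.99 ± 0.15 (SE, edgeR adjusted p = 6.68e-05) in Cpt2 L-/- and −0.98 ± 0.15 (SE, edgeR adjusted p = 5.43e-05) in DKO livers, to 0.528, 0.503 and 0.505 of control. The fall in DKO livers was close to that of either deletion alone, and the interaction was 0.93 ± 0.21 (SE, edgeR adjusted p = 0.0239). That interaction was lost without control replicate 3 (0.84, adjusted p = 0.0538) or DKO replicate 2 (0.84, adjusted p = 0.0604), and in the fit of all 24 libraries.

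Ppara KO livers read 703, 679, 723 and 769 CPM, also below every control library, where Glud1 fell with a log2 fold change of −0.50 ± 0.18 (SE, edgeR adjusted p = 0.0461). That call was lost in 12 of 16 fits without 1 library, with values of −0.54 to −0.44 and adjusted p up to 0.122, with no filter on low counts (adjusted p = 0.0941) and with the replicate block (0.0572). Cpt2 L-/- Ppara KO livers read 621, 888, 557 and 584 CPM, and the interaction of Cpt2 and Ppara loss was 0.86 ± 0.26 (SE, edgeR adjusted p = 0.0228). It was lost without Cpt2 L-/- replicate 1 (0.77, adjusted p = 0.0559) or Cpt2 L-/- Ppara KO replicate 2 (0.69, adjusted p = 0.054), and with no filter on low counts (adjusted p = 0.0537). All Cpt2 L-/- Ppara KO libraries were below the control range, and they overlapped with both groups that lack 1 of the genes.

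**Figure D3:**
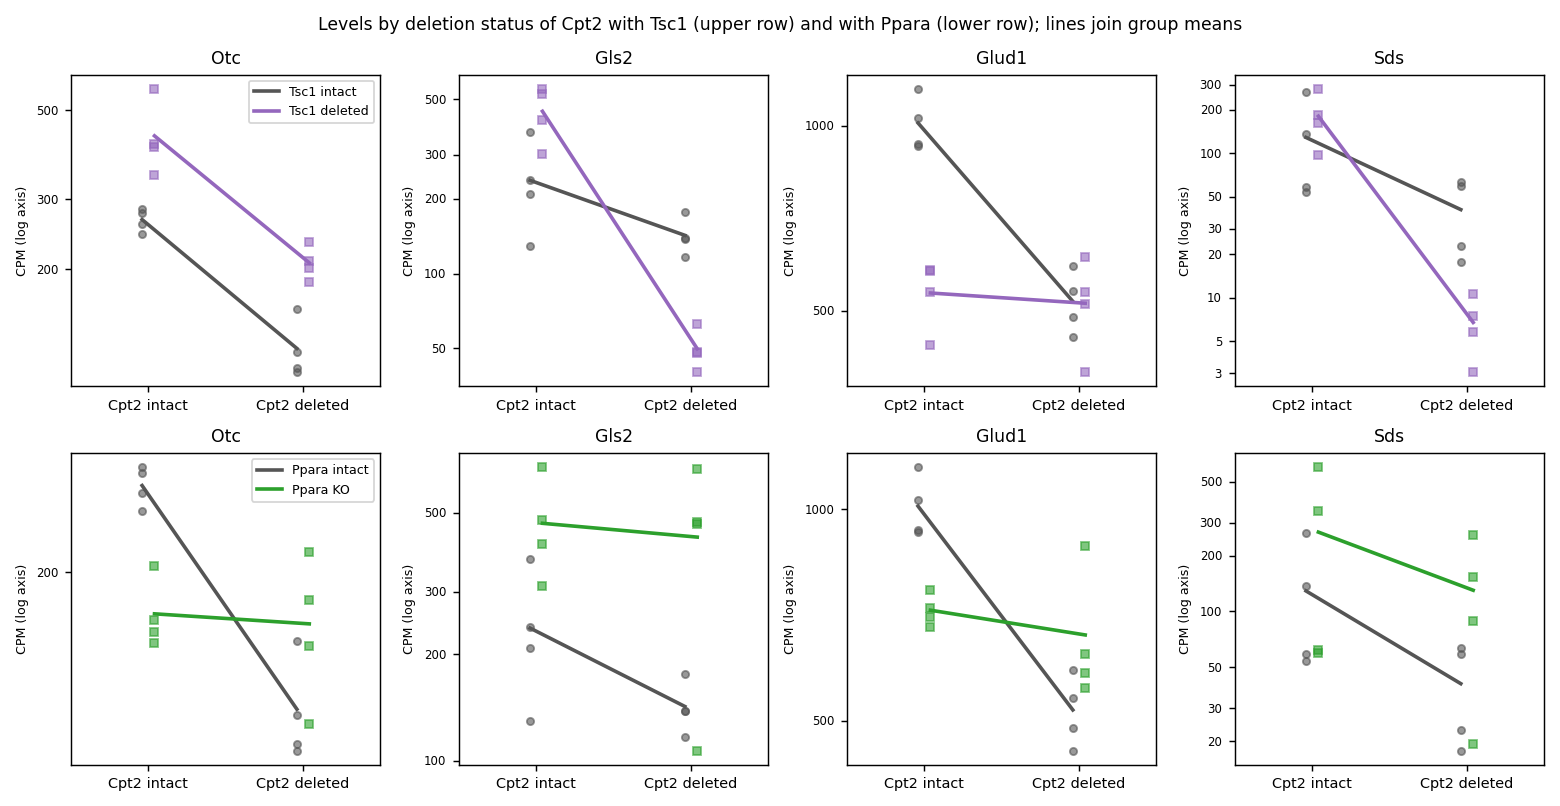
CPM (log axis) of Otc, Gls2, Glud1 and Sds by deletion status of Cpt2, with Tsc1 intact or deleted in the upper row and Ppara intact or deleted in the lower row. Points are libraries and lines join group means, so parallel lines mean an equal fold effect, as for Otc in the upper row, and the lines of Gls2 in the upper row cross (interaction −2.41).

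The last members degrade amino acids. Sds, serine dehydratase, which varied most over genotypes of the 9 genes, lies on chromosome 5 from 120476531 to 120483932 on the plus strand (ENSMUSG00000029597). It read 266, 137, 59 and 54.3 CPM in control livers, 184, 281, 161 and 98.1 with Tsc1 deleted, 22.9, 63.4, 59.1 and 17.8 with Cpt2 deleted and 7.47, 3.05, 10.6 and 5.83 with both deleted, and every DKO library was below every other library of the 24. Sds fell in DKO livers to 0.0515 of control, a log2 fold change of −4.28 ± 0.68 (SE, edgeR adjusted p = 0.000346), to 0.166 of Cpt2 L-/- (−2.59 ± 0.64, SE, edgeR adjusted p = 0.0152) and to 0.0369 of Tsc1 L-/- livers (−4.76 ± 0.69, SE, edgeR adjusted p = 0.000207). The comparison with Cpt2 L-/- livers was lost without DKO replicate 2 (−2.34, adjusted p = 0.0512) and in the fit of all 24 libraries (adjusted p = 0.061).

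The fall of Sds in Cpt2 L-/- against control livers, −1.69 ± 0.60 (SE, edgeR adjusted p = 0.0466), depended on 1 library in size, since it was −1.02, adjusted p = 0.192 without control replicate 1. The call was lost in 9 other fits without 1 library, with values of −1.90 to −1.44 and adjusted p of 0.0505 to 0.117. In 5 of these the library left out belonged to neither group compared and the value stayed at −1.69. It was also lost in 5 of 8 settings that kept every library, with values of −1.70 to −1.49. The interaction of Tsc1 and Cpt2 loss was −3.07 ± 0.86 (SE, edgeR adjusted p = 0.0805) and was called by edgeR in 1 of 16 fits without 1 library, that without control replicate 1 (−3.74, adjusted p = 0.0368), and by DESeq2 (adjusted p = 0.00948). Sds read 59.5, 600.2, 349 and 61.8 CPM in Ppara KO and 19.3, 153, 259 and 89.2 in Cpt2 L-/- Ppara KO livers, a spread of 10.1-fold and 13.4-fold within a group. None of its Ppara comparisons was called. Plbd2 and Gm15690 overlap Sds on the opposite strand, with 63453 and 2235 counts against 47062 of Sds over the 24 libraries, so part of the Sds count may be theirs if strand was not used.

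Tat, the rate-limiting enzyme of tyrosine breakdown, lies on chromosome 8 from 109990437 to 109999803 on the plus strand (ENSMUSG00000001670) and had no edgeR call in any comparison with every library kept. It read 5336, 4621, 1345 and 1345 CPM in control livers, 2684, 5703, 2456 and 1698 with Tsc1 deleted, 2407, 1883, 1600.2 and 1626 with Cpt2 deleted and 817, 1191, 2109 and 2492 with both deleted. Control replicates 1 and 2 were above, and replicates 3 and 4 below, every Cpt2 L-/- library. The difference of DKO from control was −0.95 ± 0.51 (SE, edgeR adjusted p = 0.159). Ppara KO livers read 3953, 10605, 10961 and 3965 CPM and Cpt2 L-/- Ppara KO livers 1817, 5099, 6242 and 4883. The difference of Ppara KO from control was 1.21 ± 0.49 (SE, edgeR adjusted p = 0.0715), with a 95% interval of 0.18 to 2.24, and DESeq2 called it (adjusted p = 0.0279). edgeR called it without control replicate 1 (1.59, adjusted p = 0.038) and without Ppara KO replicate 1 (1.42, adjusted p = 0.0409) or 4 (1.43, adjusted p = 0.0423). The difference of Cpt2 L-/- Ppara KO from Cpt2 L-/- livers, 1.26 ± 0.49 (SE, edgeR adjusted p = 0.0801), was called by DESeq2 (adjusted p = 0.0312) and by edgeR in the fit of the 2 groups alone (0.0428) and without Cpt2 L-/- Ppara KO replicate 1 (1.53, adjusted p = 0.0479).

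Nags, Otc and Glud1 were the 3 members lower without overlap in Cpt2 L-/- against control livers. Their promoters are shown because these members moved together there. The sequences are the 250 bases before the annotated start in RefSeq (GRCm38.p6), 5′ to 3′ on the plus strand, and capitals mark matches to the motifs searched on both strands: chr11:102145263-102145512 for Nags, chrX:10252055-10252304 for Otc and chr14:34310477-34310726 for Glud1.
Nags: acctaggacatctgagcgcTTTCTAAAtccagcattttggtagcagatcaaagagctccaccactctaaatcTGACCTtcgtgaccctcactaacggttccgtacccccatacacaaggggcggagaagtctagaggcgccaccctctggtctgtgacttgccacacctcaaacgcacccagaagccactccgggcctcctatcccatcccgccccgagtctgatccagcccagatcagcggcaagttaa
Otc: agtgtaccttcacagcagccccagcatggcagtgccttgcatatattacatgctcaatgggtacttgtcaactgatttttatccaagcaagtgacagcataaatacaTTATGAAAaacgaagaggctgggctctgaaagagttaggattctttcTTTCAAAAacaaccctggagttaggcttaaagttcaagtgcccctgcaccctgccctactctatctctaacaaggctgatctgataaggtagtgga
Glud1: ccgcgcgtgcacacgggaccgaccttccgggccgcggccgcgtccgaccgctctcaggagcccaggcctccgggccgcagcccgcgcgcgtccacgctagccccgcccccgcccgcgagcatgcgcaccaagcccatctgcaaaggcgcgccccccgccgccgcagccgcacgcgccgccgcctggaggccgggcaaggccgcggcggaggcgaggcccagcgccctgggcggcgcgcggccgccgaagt
The Otc window held the C/EBP motif TTNCNNAA at −143 to −136 on the minus strand and at −96 to −89 on the plus strand, counted from the start. The Nags window held TTNCNNAA at −231 to −224 and, on the minus strand, the nuclear receptor motif AGGTCA at −178 to −173. The Glud1 window, rich in G and C, held none of the letters searched. TTNCNNAA was in 36.9% and AGGTCA in 13.8% of 27025 promoters of the same length, so these matches are common. The other motifs searched were TTGCNNAA (9.55% of promoters, and a stricter form of TTNCNNAA), TGACGTCA (1.62%), TGACG (17.9%, inside the former), TGTTCT (16.2%), the DR1 repeat of AGGTCA (0.037%), TATAAA (13%), CCAAT (34.5%), CAAAGTCCA (0.381%) and TGATGNAAN (3.51%). Of the 9 genes 5 were in the promoter table, the others being Ass1, with no match, and Tat, with CCAAT at −72 to −68 on the plus strand, −168 to −164 and −40 to −36 on the minus strand, and TTNCNNAA at −248 to −241.

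Transporters and enzymes that feed the cycle were taken as a list of 24 genes, of which 21 were tested. In Tsc1 L-/- against control livers 2 rose and 3 fell, in Cpt2 L-/- livers 3 rose and 8 fell, and in DKO livers 6 rose and 11 fell, with medians of −0.04, −0.34 and −0.56 on the log2 scale (0.01, −0.02 and 0.02 over all genes tested). The shares of all genes that rose and fell were 4.16% and 2.48%, 16.2% and 14.9%, and 19.3% and 17.1%. Car5a, the mitochondrial carbonic anhydrase that provides bicarbonate to Cps1, was at 33.7 ± 5.06 CPM (SD, n = 4) in control livers and fell to 3.16 ± 0.602 CPM with Cpt2 deleted, a log2 fold change of −3.44 ± 0.29 (SE, edgeR adjusted p = 9.15e-07). It also fell in DKO (−2.68 ± 0.28, SE, edgeR adjusted p = 2.5e-06) and Ppara KO livers (−2.51 ± 0.32, SE, edgeR adjusted p = 3.59e-05). Its interaction of Cpt2 and Ppara loss was 3.45 ± 0.45 (SE, edgeR adjusted p = 0.000158). Oat, ornithine aminotransferase, ranged over 1257 to 1747 CPM among control livers, 338 to 470.4 CPM with Tsc1 deleted and 149 to 376 CPM with both deleted, log2 fold changes of −1.91 ± 0.29 (SE, edgeR adjusted p = 0.00088) and −2.59 ± 0.30 (SE, edgeR adjusted p = 6.85e-06). Slc25a15, the mitochondrial ornithine carrier, fell from Cpt2 L-/- to DKO livers with a log2 fold change of −1.02 ± 0.25 (SE, edgeR adjusted p = 0.0102).

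Glul, glutamine synthetase of the pericentral hepatocytes, which removes the ammonia the cycle leaves, was at 1416 ± 296 CPM (SD, n = 4) in control livers, 1054 ± 269.9 CPM with Tsc1 deleted, 292 ± 41.4 CPM with Cpt2 deleted and 872 ± 116 CPM with both deleted. It fell in Cpt2 L-/- livers with a log2 fold change of −2.30 ± 0.20 (SE, edgeR adjusted p = 7.86e-07) and was higher in DKO than in Cpt2 L-/- livers, with a log2 fold change of 1.60 ± 0.20 (SE, edgeR adjusted p = 6.18e-05), with an interaction of 2.02 ± 0.28 (SE, edgeR adjusted p = 0.000892). Glul is also one of the pericentral markers above. Got1, which makes aspartate for Ass1, fell from Tsc1 L-/- to DKO livers with a log2 fold change of −2.30 ± 0.55 (SE, edgeR adjusted p = 0.00555). Asns, asparagine synthetase, an Atf4 target, was at 4.81 ± 2.95 CPM in control and rose in Tsc1 L-/- (3.40 ± 0.70, SE, edgeR adjusted p = 0.0122), DKO (2.39 ± 0.69, SE, edgeR adjusted p = 0.0162) and Ppara KO livers (3.14 ± 0.45, SE, edgeR adjusted p = 0.000105). In Ppara KO against control livers 3 of the 21 rose and 8 fell (15.9% and 13.2% of all genes), among them Slc25a13, the aspartate carrier, at −1.67 ± 0.20 (SE, edgeR adjusted p = 1.95e-05). In Cpt2 L-/- Ppara KO against Cpt2 L-/- livers 5 rose and 1 fell (10.3% and 8.01% of all genes), and the interaction of Cpt2 and Ppara loss was positive in 7 and negative in 1 (12% of all genes each).

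**Figure D4:**
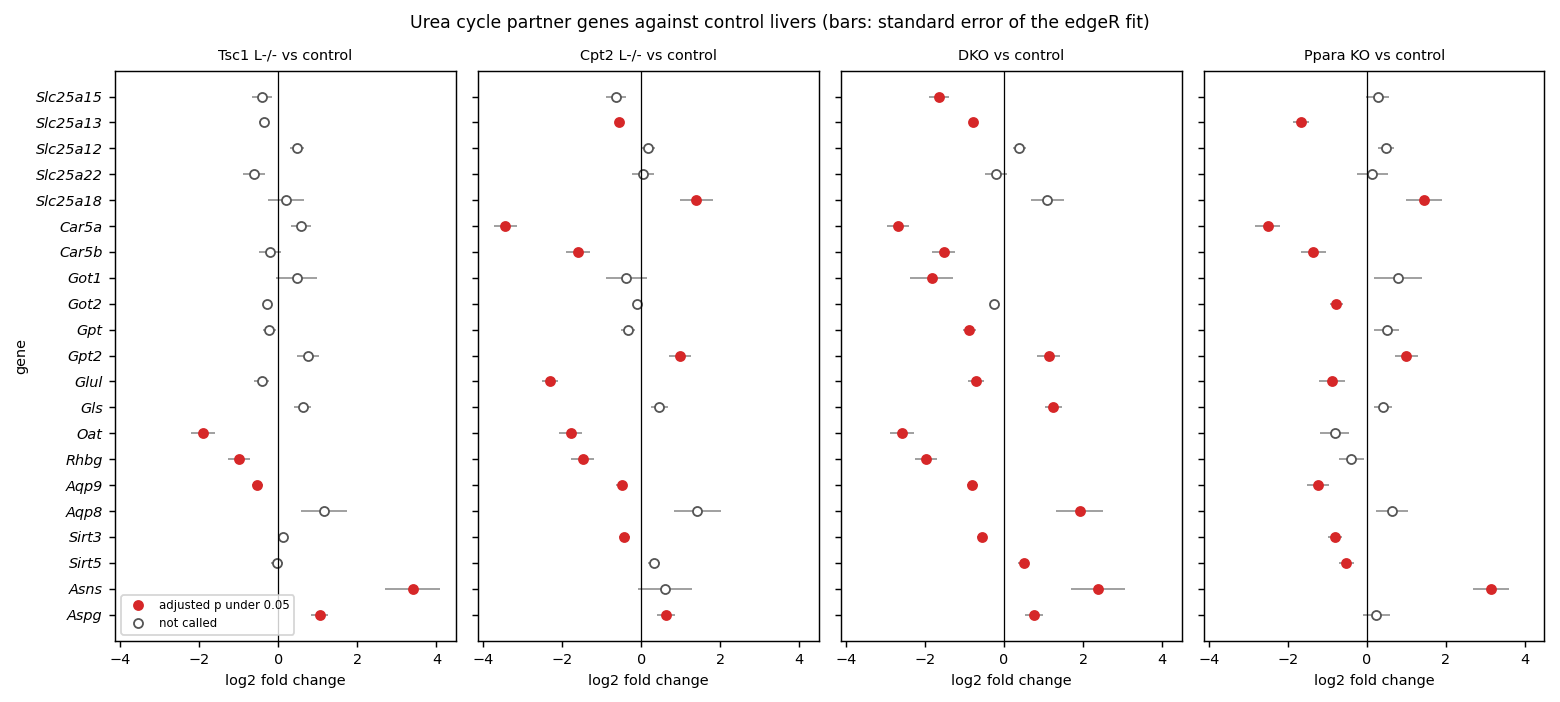
Log2 fold change against control of 21 transporters and enzymes around the urea cycle in Tsc1 L-/-, Cpt2 L-/-, DKO and Ppara KO livers, with the standard error as bars. Filled points have an edgeR adjusted p under 0.05 and open points do not, and Car5a is at −3.44 in Cpt2 L-/- livers.

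Catabolic enzymes of other amino acids, which set free the nitrogen that the cycle disposes of, were listed as 39 genes with 37 tested. None of the 37 was called in Tsc1 L-/- against control livers by edgeR, where 6 had an unadjusted p under 0.05 and 4.16% of all genes rose and 2.48% fell. In Cpt2 L-/- livers 23 fell and none rose, with a median of −0.66, where 14.9% of all genes fell and 16.2% rose and their median was −0.02. For DKO against control 27 fell and none rose, with a median of −0.94, where 17.1% of all genes fell and 19.3% rose and their median was 0.02. From Tsc1 L-/- to DKO livers 28 fell and none rose (15.2% and 16.9% of all genes). Afmid, which hydrolyses formylkynurenine in tryptophan breakdown, fell with a log2 fold change of −2.03 ± 0.22 (SE, edgeR adjusted p = 4.78e-06) in Cpt2 L-/- and −3.05 ± 0.24 (SE, edgeR adjusted p = 1.1e-07) in DKO livers, and Acmsd of the same pathway fell with a log2 fold change of −2.55 ± 0.68 (SE, edgeR adjusted p = 0.0119) in Cpt2 L-/- livers. From Cpt2 L-/- to DKO livers 5 rose and 7 fell (10.9% and 7.4% of all genes), among the latter Hal, the histidine ammonia-lyase, at −1.65 ± 0.51 (SE, edgeR adjusted p = 0.0398) and Agxt, the alanine-glyoxylate aminotransferase, at −1.64 ± 0.39 (SE, edgeR adjusted p = 0.0114). In Ppara KO against control livers 4 rose and 14 fell (15.9% and 13.2% of all genes), and the interaction of Cpt2 and Ppara loss was positive in 14 and negative in 1 (12% of all genes each). Hal also stands in the periportal marker list.

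Of 15 regulators of hepatic amino acid metabolism, all tested, 1 fell in Tsc1 L-/- against control livers, 2 rose and 1 fell in Cpt2 L-/- livers, and 1 rose and 5 fell in DKO livers. All genes were called higher and lower at 4.16% and 2.48%, 16.2% and 14.9%, and 19.3% and 17.1% in these comparisons. Klf15, a transcription factor of amino acid breakdown in fasting, fell with a log2 fold change of −1.03 ± 0.20 (SE, edgeR adjusted p = 0.000693) in Cpt2 L-/- and −1.20 ± 0.20 (SE, edgeR adjusted p = 0.000146) in DKO livers. It was also low in Ppara KO livers, at 98.9 to 164 CPM, against 185 to 363 CPM in control and 125 to 137 CPM in Cpt2 L-/- livers. Its interaction of Cpt2 and Ppara loss was 1.34 ± 0.40 (SE, edgeR adjusted p = 0.0234). Atf4, the transcription factor of the amino acid stress response, rose with a log2 fold change of 0.78 ± 0.17 (SE, edgeR adjusted p = 0.00162) in Cpt2 L-/-, 0.95 ± 0.17 (SE, edgeR adjusted p = 0.00025) in DKO and 1.30 ± 0.27 (SE, edgeR adjusted p = 0.00198) in Ppara KO livers, and from Tsc1 L-/- to DKO livers (0.66 ± 0.17, SE, edgeR adjusted p = 0.00525). Foxo1, active in fasting, fell with a log2 fold change of −0.98 ± 0.26 (SE, edgeR adjusted p = 0.00765) in DKO livers, and Cebpa, a hepatocyte factor known to act on urea cycle genes, fell with a log2 fold change of −0.88 ± 0.20 (SE, edgeR adjusted p = 0.00251) from Tsc1 L-/- to DKO livers. Cebpa was also below control (440 to 657 CPM) without overlap in Ppara KO (251 to 401 CPM) and Cpt2 L-/- Ppara KO livers (136 to 296 CPM). Cps1 and Ass1 had their highest means in those groups. In Ppara KO against control livers 1 of the 15 rose and 5 fell (15.9% and 13.2% of all genes). From Cpt2 L-/- to Cpt2 L-/- Ppara KO livers none rose and 4 fell (10.3% and 8.01%). The interaction of Cpt2 and Ppara loss was positive in 3 and negative in none (12% of all genes each). Ppargc1a, a coactivator induced by fasting, fell with a log2 fold change of −1.34 ± 0.36 (SE, edgeR adjusted p = 0.00948) in Ppara KO livers.

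The genes whose centred log2 group means over the 6 genotypes lay closest to those of a member were found among 12243 genes. Got1 was closest to Gls2, with a root mean square difference of 0.319 on the log2 scale, and Nr0b2 was closest to Sds, with 0.352. Fbxo33 (0.0925) was closest to Otc, Zbtb8a (0.0853) to Cps1, Sox7 (0.0888) to Nags and Ifi27 (0.110) to Tat, followed by Cyp1a2 (0.111). Dusp1 (0.127) was closest to Asl. The gene closest to Ass1 was Gm5424 (0.0835), whose transcript was 99.5% identical to that of Ass1 over 1240 bases and whose count was 0.677% of that of Ass1, so reads of Ass1 may have been counted there. Glud1 has the near copies Glud-ps and Gm43444, which were not found by name in the count table.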

How the data were processed

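RNA-seq of whole liver was analysed as a table of 24 libraries, 4 per genotype by the labels, with 14470968 to 20371204 counts each. The read counts per gene were deposited by the authors without normalization. The FPKM values were deposited beside them by the authors, and recomputing them from the counts and gene lengths gave all 24 columns within 0.0001. The submitters' processing notes name Bowtie 0.12.2, TopHat, STAR 2.5, STAR-Fusion, HTSeq 0.6.1, DESeq2 and edgeR and the builds mm8 and mm9, without roles. Gene coordinates in the deposited table are those of GRCm38. Libraries were made with a stranded kit, and the strand setting of the counting is not given in the sources used here. Columns of the table that matched no sample numbered 0.

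Genes were kept by filterByExpr (minimum count 10, minimum total 15) within each fit of 16 libraries. TMM factors and the robust quasi-likelihood F test of edgeR 4.0.16 in R 4.3.3 were used, with group means as the design, Benjamini-Hochberg adjustment over all genes tested and a threshold of 0.05. Tests were two-sided. Each SE is the log2 fold change divided by the root of F. CPM shown are TMM-scaled over all 24 libraries. The script was tested on simulated counts for Tsc1 L-/- against control, where edgeR recovered 55 of 97 genes at a log2 fold of 1 and 86 of 101 at 2, with 6 false calls among 13447 genes. DESeq2 recovered 62 and 89 of these, with 22 false calls.

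Alternatives were RLE factors, no filter on low counts, DESeq2 1.42.0, limma 3.58.1 on log2(FPKM + 1) and log2(FPKM + 0.1), a fit of all 24 libraries, a fit of the 2 groups compared, an added log2 fold of at least 1, the replicate number as a block and leaving out each library in turn. No library was a copy of another of its own group, since the 36 pairs within groups differed by 22.2 to 241 in chi-square per gene. Pairs from different groups were not compared. The labels do not say that libraries came from separate animals, so p-values measure the spread between these libraries.

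The members and lists were chosen with earlier results of these data known. Some genes of the set and its lists are not reported here, and every count over the members or lists leaves them out. The 9 members were named in every comparison. From each supporting list, named genes were taken from the 2 largest rises and 2 largest falls among called genes with a mean of at least 1 CPM, regulators were named freely, and for a member whose group means spanned over 1 on the log2 scale the 2 genes with the most similar pattern were found, of which the first is given unless stated. Promoter sequence came from a RefSeq table of GRCm38.p6. Figures were drawn with matplotlib 3.10.9.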

Additional observations from a re-analysis of the deposited data

Results flagged for a closer look

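The effect of one deletion differed with the state of another gene in 4 member values, each tested as an interaction term with edgeR. For Gls2 the interaction of Tsc1 and Cpt2 loss was −2.41 on the log2 scale (SE 0.37, edgeR adjusted p = 0.00323). For Glud1 it was 0.93 (SE 0.21, edgeR adjusted p = 0.0239). The interaction of Cpt2 and Ppara loss was 1.03 for Otc (SE 0.26, edgeR adjusted p = 0.0096) and 0.86 for Glud1 (SE 0.26, edgeR adjusted p = 0.0228). Within the 54 groups of 4 libraries, one for each member and genotype, 0 had a highest or lowest library whose gap to the next, over the range of the group, passed Dixon's 95% critical value, where chance alone gives about 1 in 20.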

How the results depend on the processing

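Direction was kept by every member value described, under every setting that kept all libraries. The number of members called changed by more than 1.5 times in the following settings. Where calls also needed a log2 difference of 1 or more in size, it was 0 for Tsc1 L-/- against control, 2 for Cpt2 L-/- and 3 for DKO, 1 for Ppara KO, and 1 for each of the 2 interactions. In Cpt2 L-/- against control livers it was 3 rather than 5 without a filter on low counts, in a fit of all 24 libraries, with limma on log2(FPKM + 0.1) and in a fit of the 2 groups compared. With DESeq2 it was 5 rather than 3 for DKO against Cpt2 L-/- livers and for Ppara KO against control. For Cpt2 L-/- Ppara KO against Cpt2 L-/- livers it was 1 rather than 2 with limma on either FPKM scale. For the interaction of Tsc1 and Cpt2 loss it was 5 with DESeq2 and 1 in the fit of all 24 libraries, and for that of Cpt2 and Ppara loss it was 1 without the filter. DESeq2 added 12 calls of single members and lost 0. The cause of these changes was not tested.

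Leaving out 1 library at a time gave 2 to 4 members called for Tsc1 L-/-, 3 to 5 for Cpt2 L-/- and 4 to 7 for DKO against control, 2 to 4 for DKO against Cpt2 L-/- (2 without DKO replicate 2), 6 to 7 for DKO against Tsc1 L-/- and 1 to 4 for the interaction of Tsc1 and Cpt2 loss (1 without control replicate 3 or DKO replicate 2 and 4 without control replicate 1). It gave 0 to 4 for Ppara KO against control (0 without Ppara KO replicate 3), 0 to 4 for Cpt2 L-/- Ppara KO against Cpt2 L-/- (0 without Cpt2 L-/- replicate 3 and 4 without Cpt2 L-/- Ppara KO replicate 1), 0 for Cpt2 L-/- Ppara KO against Ppara KO and 1 to 2 for the interaction of Cpt2 and Ppara loss. Of 32 calls, 13 were lost in at least 1 such fit. The interaction of Otc between Tsc1 and Cpt2 loss, near 0, ranged from −0.060 to 0.20 and changed sign in 6 of these fits.

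Replicate numbers are shared by the groups but do not pair the libraries. Correlations of same-numbered deviations from the group means ranged from −0.26 to 0.17 over 8 comparisons, and at most 2 of 4 libraries correlated best with their own number. With the number as a replicate block, 3, 4 and 5 members were called against control for Tsc1 L-/-, for Cpt2 L-/- and for DKO livers, and 2 for Ppara KO. The calls lost were Sds in Cpt2 L-/- (−1.64, edgeR adjusted p = 0.0534), Asl in DKO (−0.85, edgeR adjusted p = 0.0898) and Glud1 in Ppara KO livers (−0.50, edgeR adjusted p = 0.0572). The block changed no other call. Library totals ranged from 14470968 to 20371204 counts, and counting error was not separated from the spread between libraries of a genotype.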
